A study of Homo sapiens with 21 samples.

Results

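The genes described here are the microRNA miR-147b (MIR147B), its host gene C15orf48, the C15orf48 paralog NDUFA4, and VHL and SDHD, the genes proposed as targets of the miRNA by the study. They were picked by name and not by a rule on measured values, though with earlier results of these data known. The 5 symbols match 6 of the 56632 genes in the 3 deposited tables, because SDHD names a second identifier at an overlapping locus (ENSG00000255292). That second entry held at most 16.8 expected counts in any library and at most 0.710% of those of SDHD (ENSG00000204370), so SDHD below means the main entry.

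Messenger RNA was sequenced in 21 libraries from 5 human cell lines, with 1 library for each condition and line. In the tolerance experiment PC9 and HCC827 tolerant to gefitinib, or to osimertinib, were set against their parental, vehicle-labelled lines (2 lines per group), after 14 days of drug at 40 nM gefitinib or 20 nM osimertinib. The labels leave unclear which line received which dose. Both are lung cancer lines driven by mutant EGFR, the kinase that gefitinib and osimertinib inhibit. The overexpression groups were AALE, HCC827 and PC9 with miR-147b or miR-21 delivered by lentivirus under puromycin, against a scrambled control (3 lines per group), where AALE is an immortalized airway epithelial line. The knockdown groups were H1975 and PC9ER (both EGFR mutant, with the gatekeeper resistance mutation), with anti-miR-147b, anti-miR-21 or an anti control (2 lines per group). The labels do not name the knockdown reagent. No label says that libraries came from separate cultures, so the lines served as replicates and the p-values measure only the spread between these samples.

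A microRNA is cut from a hairpin in a longer transcript and pairs, through its seed, with sites in the 3' untranslated region (UTR) of other mRNAs, which lowers their stability or translation. The miR-147b hairpin lies inside the C15orf48 mRNA, so the host transcript gives both a small mitochondrial protein and the miRNA, and both are induced by NF-kB signals in macrophages and epithelium. NDUFA4 is a subunit of cytochrome c oxidase (complex IV) that the C15orf48 protein can replace, SDHD anchors succinate dehydrogenase (complex II) in the inner mitochondrial membrane, and VHL is the substrate receptor of the ubiquitin ligase that degrades the hypoxia-inducible factors (HIF).

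The mature sequences show what the seed search used and how close miR-147b is to its relative miR-147a, and the miR-21 sequence is that of the comparison miRNA. They are from RefSeq (GRCh38.p14) and are given 5′ to 3′, with the seed, bases 2 to 8, in capitals.
hsa-miR-147b-3p: gUGUGCGGaaaugcuucugcu
hsa-miR-147a: gUGUGUGGaaaugcuucugc
hsa-miR-21-5p: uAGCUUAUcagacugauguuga
Over the 20 bases they share, miR-147b and miR-147a differ by C6U, counted from the 5′ end with the base of miR-147b first. This lies within the seed, and of 2545 mature human miRNAs in the RefSeq table only 1 had the miR-147b seed. The mature miR-147b is encoded at chr15:45433098-45433118 on the plus strand, and its hairpin of 80 bases spans chr15:45433050-45433129. In GENCODE release 29 on GRCh38, the hairpin lies in an exon of C15orf48 that starts at position 45432948 and is the last exon in 2 of its transcripts. It begins 33 bases after the last coding base, within the 3' UTR.

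Sites were sought as CCGCACA, the match to the miR-147b seed, on the sense strand of the 3' UTRs of 18394 of the 20428 protein-coding genes in the tables, those for which GENCODE gave one (90.0%). Such a match was present in 500 genes (2.72%), and 67 genes (0.364%) held it followed by A, the form called an 8mer. NDUFA4 held 1 match, an 8mer, at chr7:10933574-10933580 on the minus strand, and VHL held 1 match without the A at chr3:10150748-10150754 on the plus strand. SDHD held no match to all 7 bases of the seed and C15orf48 held none. In its 3' UTR SDHD had a shorter match, to bases 2 to 7 followed by A, at chr11:112095701-112095706. The 6 bases alone (CGCACA) were found in 1745 genes (9.49%), with any base after them and full seed matches included. Genes with the A after these 6 bases were not counted. The sites are given with the match in capitals.
NDUFA4 site: cagaagccacatCCGCACAattttccactt
VHL site: gtaacttgccatCCGCACAgaaaatacgag
SDHD 6-base match: aattgttattttCGCACAatgggaatctct
Among the 12 bases before the NDUFA4 match, the 7 bases cagaagc were complementary to an unbroken run in the 3' end of miR-147b, and a run as long was present at 4 of 539 sites (0.742%). At the VHL site the longest such run was 3 bases, as at 390 of the 539 sites. These are matches of letters and not measured binding.

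Total expected counts ranged from 15516460 to 29694050 per library, with a median of 22026253. Levels are given as CPM, expected counts scaled to the library size after TMM normalisation. The basal markers KRT5, KRT14, KRT6A and TP63 summed to between 4057 and 9177 CPM in the 3 AALE libraries and to between 1.90 and 968 CPM in the 18 cancer line libraries, and the epithelial markers EPCAM, CDH1, KRT8, KRT18 and KRT19 summed to at least 2022 CPM in every library. All 4 alveolar markers were under 1 CPM in AALE. The 5 leukocyte markers summed to 14.3 to 21.2 CPM in AALE and 34.6 to 190 CPM in the cancer lines, where CD3E alone of them was under 1 CPM in every library. The 4 fibroblast markers summed to 10.7 to 17.2 CPM in AALE and 8.70 to 131 CPM in the cancer lines, where COL1A2 and PDGFRB were under 1 CPM throughout. The 2 endothelial markers in the tables summed to 0.386 to 1.26 CPM in AALE and 0.102 to 57.8 CPM in the cancer lines. In bulk libraries such as these, fewer cells that express a gene and less RNA per cell cannot be told apart.

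The miR-147b row itself checked the overexpression labels. MIR147B (ENSG00000211519) had 526, 386 and 61.0 expected counts in the miR-147b overexpression libraries of AALE, HCC827 and PC9, and 0 in each of the other 18 libraries. These counts correspond to 22.0 CPM in AALE, 12.9 CPM in HCC827 and 2.89 CPM in PC9. All 3 libraries labelled as overexpressing the miRNA thus stood above all others, and the level was lowest in PC9. Against a floor of 3 counts in each scrambled library, the levels were at least 171-fold higher in AALE, 86.0-fold higher in HCC827 and 20.0-fold higher in PC9. In edgeR's quasi-likelihood test with the line as a block and Benjamini-Hochberg adjustment, 1 gene of 18433 (0.00543%) passed in miR-147b over scrambled libraries, and 828 genes had an unadjusted p under 0.05. That gene was MIR147B itself. It met the filter on low counts only through the libraries in which it is high and was at 0 in every other, so its call is a description and supports nothing. DESeq2's Wald test called 7 genes and limma's voom test 4.

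The row says nothing of the miRNA in unmodified cells. It held 0 counts in PC9ER control cells, where the host gene reached 304 CPM, its highest level in the series, and in every tolerance and knockdown library. A library of mRNA does not capture a mature miRNA, and the row therefore could not check the anti-miR-147b labels. In the overexpression libraries the counts given to MIR147B were 8.81% (AALE), 6.98% (HCC827) and 1.88% (PC9) of those given to C15orf48.

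C15orf48 (ENSG00000166920, chr15:45430529-45448761, plus strand on GRCh38), the host gene, varied more than any other member, from 1.01 to 304 CPM over the 21 libraries. The median level was highest in PC9ER (256 CPM, range 101 to 304, 3 libraries), followed by PC9 (165 CPM, 18.8 to 187, 6 libraries), H1975 (64.2 CPM, 53.1 to 67.7, 3 libraries), HCC827 (7.79 CPM, 2.45 to 185, 6 libraries) and AALE (1.80 CPM, 1.01 to 250, 3 libraries). The ranges of neighbouring lines in this order all overlapped, so it is an order of medians alone. The HCC827 and AALE libraries of miR-147b overexpression stood far above the other libraries of their lines.

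With miR-147b overexpression, C15orf48 had 250 CPM in AALE against 1.80 CPM with the scrambled control, 185 CPM in HCC827 against 2.45 CPM, and 154 CPM in PC9 against 176 CPM. Its level was thus 139-fold and 75.4-fold that of the scrambled library in AALE and HCC827 and 0.874-fold in PC9, where the scrambled library was already high. The miR-21 vector gave 1.01 CPM in AALE, 5.64 CPM in HCC827 and 135 CPM in PC9, within 2.30-fold of the scrambled library in each line. The log2 fold change over the 3 lines was 5.03 ± 1.32 (SE) for miR-147b over scrambled and did not pass (adjusted p = 0.921, edgeR's quasi-likelihood test, 95% interval 2.06 to 8.00), with 2 of 3 lines higher. Without the PC9 miR-147b library it was 6.48 and passed (adjusted p = 0.00544). Against miR-21 overexpression it was 5.10 ± 1.30 (adjusted p = 1.00 in edgeR and 0.0425 in DESeq2's Wald test). Since the hairpin lies in an exon of C15orf48, reads of a delivered hairpin with its flanks and reads of the gene itself cannot be told apart in counts per gene.

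In drug tolerance the C15orf48 change differed between the 2 lines. PC9 had 181 CPM in gefitinib-tolerant and 187 CPM in osimertinib-tolerant cells, against 18.8 CPM in parental cells. HCC827 had 6.34 CPM in gefitinib-tolerant and 9.24 CPM in osimertinib-tolerant cells, against 10.4 CPM in parental cells. Both tolerant PC9 libraries had thus 9.67 and 9.98 times the level of their parental library and both tolerant HCC827 libraries were lower than theirs. The difference between the lines, the tolerant-over-parental change in HCC827 minus that in PC9 with both drugs as repeats, was -3.76 ± 0.36 (log2, SE) and passed (adjusted p = 0.0333, edgeR's quasi-likelihood test), as did 773 of 19837 genes (3.90%), 380 of them higher (1.92%) and 393 lower (1.98%). Each parental arm was 1 library, so this p rests only on the spread between the 2 drugs and holds nothing of the spread between untreated libraries. Of the 4 members tested, 2 passed, C15orf48 and NDUFA4. The mean change over both lines was 0.92 ± 1.09 for gefitinib (adjusted p = 0.681) and 1.11 ± 1.06 for osimertinib (adjusted p = 0.595), in comparisons where edgeR called 0 of 19837 genes (0%) for each drug. At an unadjusted p under 0.05 these had 3468 genes for gefitinib (17.5%) and 3924 for osimertinib (19.8%), with no member among them, DESeq2's Wald test called 1345 and 1754, and limma's voom test called 0. Without the parental PC9 library, which leaves that of HCC827 as the only parental one, the changes were -0.62 for gefitinib and -0.35 for osimertinib.

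The parental libraries were not the only untreated ones. PC9 and HCC827 also have a scrambled library each, and C15orf48 had 176 CPM in scrambled against 18.8 CPM in parental PC9, a ratio of 9.38, and 2.45 CPM in scrambled against 10.4 CPM in parental HCC827. Of 12951 genes with a mean of at least 1 log2 CPM, 32 (0.247%) differed by as much between these untreated PC9 libraries. The tolerant PC9 libraries were at the level of the scrambled PC9 library and above that of the parental one. With both untreated libraries of a line as controls, an alternative added after the data were seen, the difference between lines was -0.73 ± 1.28 (adjusted p = 0.865). When any of the 4 tolerant libraries was left out the value kept its sign (-4.04 to -3.50) but no gene of the whole table passed, and C15orf48 had an adjusted p of 0.0759 to 0.0970. Scrambled cells had lentivirus and puromycin and parental cells had neither, so this treatment and any other difference between the cultures cannot be told apart.

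In the knockdown experiment C15orf48 had 64.2 CPM with anti-miR-147b and 67.7 CPM with anti-miR-21, against 53.1 CPM in the H1975 control. PC9ER had 256 CPM with anti-miR-147b and 101 CPM with anti-miR-21, against 304 CPM in its control. The change with anti-miR-147b was -0.04 ± 0.48 (log2, SE, 95% interval -1.22 to 1.13, adjusted p = 1.00, edgeR), higher in H1975 and lower in PC9ER. Of 17723 genes in that fit edgeR called 0 (0%). An unadjusted p under 0.05 was seen for 146, and calls were 26 by DESeq2's Wald test and 0 by limma's voom test. The PC9ER anti-miR-21 library was the lowest of its line for C15orf48, NDUFA4 and VHL and the highest for SDHD. In that library the median log2 ratio to the control over 12951 genes was -0.15, against between -0.08 and 0.04 in the other 13 treated libraries.

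**Figure D1:**
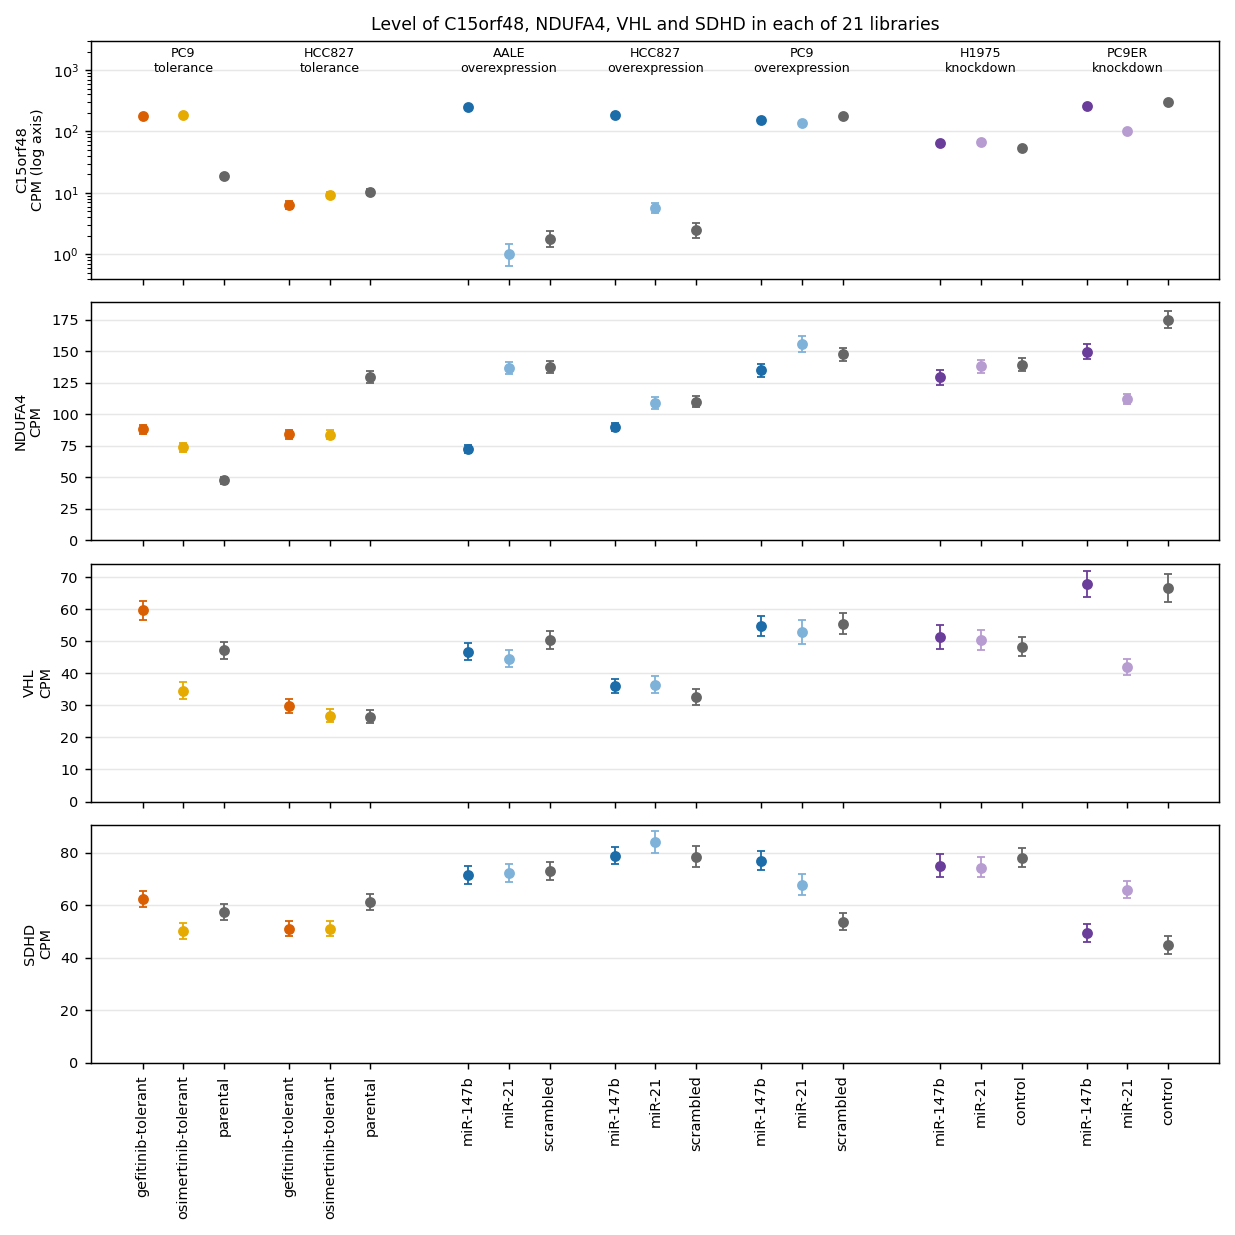
Level of C15orf48 (log axis), NDUFA4, VHL and SDHD in CPM (linear axes from 0) in each of the 21 libraries, grouped by line and experiment, treated libraries left of their control. Points are single libraries and bars are exact 95% Poisson intervals of the count. C15orf48 spans 1.01 to 304 CPM, while NDUFA4 spans 47.4 to 175, VHL 26.5 to 67.8 and SDHD 44.7 to 84.1 CPM.

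NDUFA4 (ENSG00000189043, chr7:10931951-10940256, minus strand), the complex IV subunit whose 3' UTR holds the 8mer, was lower with miR-147b overexpression in all 3 lines. It had 72.3 CPM in AALE against 137 CPM with the scrambled control, 89.7 CPM in HCC827 against 110 CPM, and 135 CPM in PC9 against 147 CPM. These levels were 0.527, 0.815 and 0.914 of the scrambled library, in the same order of lines as the MIR147B level from high to low. This is an order of single libraries, and no link with the MIR147B level was tested. With miR-21 overexpression NDUFA4 had 137 CPM in AALE, 109 CPM in HCC827 and 156 CPM in PC9, within 1.06-fold of the scrambled library in each line. The log2 fold change of miR-147b over scrambled was -0.42 ± 0.16 (SE, n = 3 lines, 95% interval -0.77 to -0.07), with an unadjusted p of 0.0225 in edgeR's model across all genes. It did not pass the adjustment (adjusted p = 0.921), and 4.49% of all genes had an unadjusted p under 0.05. Against miR-21 overexpression it was -0.44 ± 0.16 (unadjusted p = 0.0180, adjusted p = 1.00, edgeR), where 3.62% of all genes had an unadjusted p under 0.05. For miR-21 over scrambled that share was 0.928%, and no member was in it. Without the AALE miR-147b library the change was -0.20.

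Both anti-miR-147b libraries had slightly less NDUFA4 than their controls, 129 CPM against 139 CPM in H1975 and 150 CPM against 175 CPM in PC9ER. The change was -0.18 ± 0.28 (log2, SE, 95% interval -0.87 to 0.52, adjusted p = 1.00, edgeR), and overexpression minus knockdown was -0.26 ± 0.29 (adjusted p = 1.00). NDUFA4 was thus below its control with gain and with loss of the miRNA, and neither difference nor their contrast passed. In that contrast of the 15 miRNA libraries edgeR called 0 of 20092 genes (0%), with 319 (1.59%) at an unadjusted p under 0.05, C15orf48 among them (5.36 ± 1.83), 11 by DESeq2's test and 0 by limma's.

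In tolerance NDUFA4, like C15orf48, was higher than in parental cells in PC9 and lower in HCC827. PC9 had 88.0 CPM in gefitinib-tolerant and 73.6 CPM in osimertinib-tolerant cells, against 47.4 CPM in parental cells. HCC827 had 84.0 CPM in gefitinib-tolerant and 83.7 CPM in osimertinib-tolerant cells, against 129 CPM in parental cells. The tolerant libraries of both lines thus lay between the 2 parental libraries. The difference between lines was -1.45 ± 0.25 (log2, SE) and passed (adjusted p = 0.0484, edgeR's quasi-likelihood test). It was -0.32 ± 0.62 with the scrambled libraries as further controls (adjusted p = 0.882), since scrambled PC9 had 147 CPM, a ratio of 3.11 to parental PC9. Limma's voom test gave it an adjusted p of 0.0521, the edgeR fit with no filter on low counts 0.0901, and the fits without a tolerant library 0.0956 to 0.172. The mean over both lines was 0.06 ± 0.43 for gefitinib (adjusted p = 0.956) and -0.10 ± 0.43 for osimertinib (adjusted p = 0.915).

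Set against each other per kilobase of transcript (875 bases for C15orf48 and 2130 bases for NDUFA4), which paralog was the more abundant differed between libraries. Gefitinib-tolerant and osimertinib-tolerant PC9 had 5.02 and 6.19 times as much C15orf48 as NDUFA4 per kilobase, against 0.963 in parental PC9. In HCC827 the ratio was 0.184 in gefitinib-tolerant and 0.269 in osimertinib-tolerant cells, against 0.195 in parental cells, so NDUFA4 was the more abundant in all 3. With miR-147b overexpression the ratio was 8.43 in AALE against 0.0320 with the scrambled control, 5.01 in HCC827 against 0.0542, and 2.78 in PC9 against 2.91. Reads of the delivered hairpin with its flanks cannot be told apart from C15orf48 reads there. The miR-147b ratios may therefore not be those of the host mRNA. PC9ER had 4.18 with anti-miR-147b and 2.19 with anti-miR-21, against 4.23 in its control. H1975 had 1.21 with anti-miR-147b and 1.19 with anti-miR-21, against 0.929 in its control. C15orf48 exceeded NDUFA4 in all 5 PC9 libraries other than the parental one, in all 3 PC9ER libraries, in the anti-miR-147b and anti-miR-21 libraries of H1975, and in the miR-147b libraries of AALE and HCC827. NDUFA4L2, a further paralog that is induced by hypoxia, was at most 2.09 CPM in every library and passed in no comparison.

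**Figure D2:**
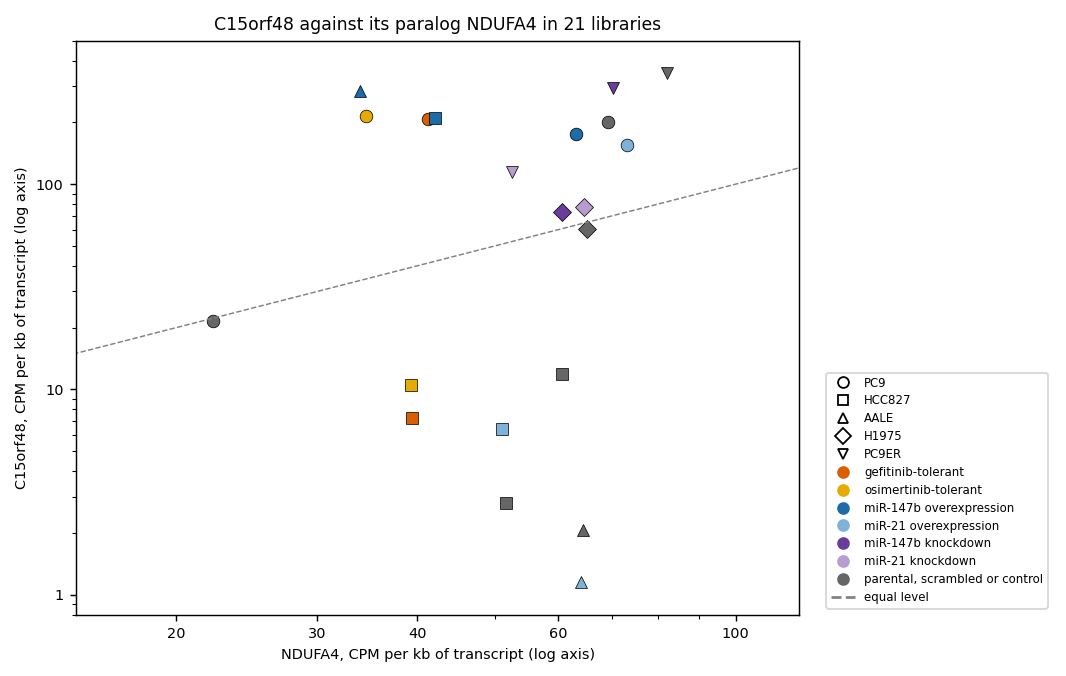
C15orf48 (vertical log axis) against NDUFA4 (horizontal log axis) in CPM per kilobase of transcript in 21 libraries; marker shape gives the line, colour the group, and the dashed line equal levels. The miR-147b libraries of AALE and HCC827 sit above the line at ratios of 8.43 and 5.01, and the scrambled libraries of these lines below it at 0.0320 and 0.0542. In the miR-147b libraries, reads of a delivered hairpin with its flanks and reads of C15orf48 cannot be told apart.

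VHL (ENSG00000134086, chr3:10141008-10152220, plus strand), the HIF ubiquitin ligase receptor, did not pass in any comparison. With miR-147b overexpression it had 46.7 CPM in AALE against 50.3 CPM with the scrambled control, 36.1 CPM in HCC827 against 32.5 CPM, and 54.7 CPM in PC9 against 55.4 CPM. It was thus lower in 2 lines and higher in 1. The change was 0.02 ± 0.10 (log2, SE, adjusted p = 0.989, edgeR) with a 95% interval of -0.21 to 0.25. With anti-miR-147b it had 51.2 CPM against 48.2 CPM in the H1975 control and 67.8 CPM against 66.5 CPM in the PC9ER control, a change of 0.05 ± 0.32 (95% interval -0.74 to 0.84, adjusted p = 1.00). The anti-miR-21 libraries had 50.4 CPM in H1975 and 41.8 CPM in PC9ER, and no member had an unadjusted p under 0.05 with anti-miR-21 (2.01% of all genes did).

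In tolerance VHL had 59.7 CPM in gefitinib-tolerant and 34.5 CPM in osimertinib-tolerant PC9, against 47.1 CPM in parental PC9. HCC827 had 29.8 CPM in gefitinib-tolerant and 26.8 CPM in osimertinib-tolerant cells, against 26.5 CPM in parental cells. The parental PC9 library lay between the libraries tolerant to the 2 drugs, and in HCC827 both tolerant libraries were slightly above the parental one. The change was 0.23 ± 0.26 with gefitinib (adjusted p = 0.667) and -0.24 ± 0.26 with osimertinib (adjusted p = 0.645), and the difference between lines was 0.04 ± 0.49 (adjusted p = 0.983, edgeR). VHL ranged from 26.5 to 36.5 CPM in the 6 HCC827 libraries and from 34.5 to 59.7 CPM in the 6 PC9 libraries. The near copy VHLL held at most 5 counts.

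SDHD (ENSG00000204370, chr11:112086773-112120013, plus strand), the membrane anchor of complex II, did not pass in any comparison, and its lowest log2 ratio to the scrambled library with miR-147b was -0.03, in AALE. With miR-147b overexpression it had 71.4 CPM in AALE against 73.1 CPM with the scrambled control, 78.8 CPM in HCC827 against 78.5 CPM, and 77.0 CPM in PC9 against 53.8 CPM. With miR-21 overexpression it had 72.2 CPM in AALE, 84.1 CPM in HCC827 and 67.8 CPM in PC9. Both miRNA vectors were thus above the scrambled library in PC9, by 1.43-fold for miR-147b and 1.26-fold for miR-21. The change with miR-147b was 0.17 ± 0.12 (log2, SE, 95% interval -0.10 to 0.45, adjusted p = 0.921, edgeR), and it was 0.03 without the PC9 miR-147b library.

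With anti-miR-147b SDHD had 75.1 CPM against 78.1 CPM in the H1975 control and 49.4 CPM against 44.7 CPM in the PC9ER control. The change was 0.03 ± 0.29 (95% interval -0.68 to 0.75, adjusted p = 1.00). Anti-miR-21 gave 74.4 CPM in H1975 and 65.8 CPM in PC9ER. In tolerance it had 62.3 CPM in gefitinib-tolerant and 50.1 CPM in osimertinib-tolerant PC9, against 57.5 CPM in parental PC9, and 51.1 and 51.2 CPM in the tolerant HCC827 cells, against 61.2 CPM in parental HCC827. The change was -0.10 ± 0.24 with gefitinib (adjusted p = 0.849) and -0.27 ± 0.24 with osimertinib (adjusted p = 0.565, edgeR). SDHD varied least of the members, 1.88-fold over all libraries.

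**Figure D3:**
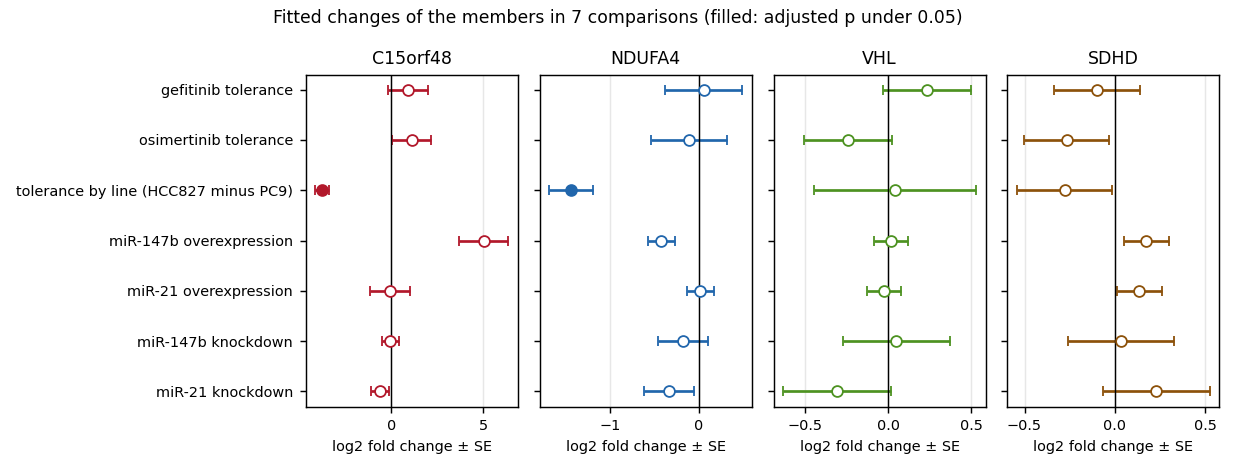
Log2 fold change (horizontal axes, a scale for each gene, bars are SE) of C15orf48, NDUFA4, VHL and SDHD in 7 comparisons, treated minus control with the line as a block, or HCC827 minus PC9 for tolerance by line. Filled points passed at an adjusted p under 0.05 in edgeR's quasi-likelihood test, which only the tolerance-by-line values of C15orf48 (-3.76) and NDUFA4 (-1.45) did.

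The genes that share the NDUFA4 and VHL kind of site were described as a list. Of genes with a match to the miR-147b seed, 439 were tested in the overexpression fit and had a median log2 fold change of 0.001 for miR-147b over scrambled, against 0.027 over the 14049 tested genes with a 3' UTR. The 60 genes with an 8mer had a median of -0.014, and NDUFA4 at -0.42 was among them. By line, genes with a match had a median of 0.07 in AALE, -0.03 in HCC827 and -0.10 in PC9 with miR-147b. Over all genes these medians were 0.02, -0.01 and -0.02. The list was thus lowest in PC9, while NDUFA4 was lowest relative to its control in AALE. With anti-miR-147b the median was 0.019 over 424 genes with a match, against 0.017 over 13607 genes. In both comparisons 0 genes of the list passed, and 22 of the 439 (12 higher, 10 lower) had an unadjusted p under 0.05 with overexpression and 0 of the 424 with anti-miR-147b. Over all genes with a 3' UTR these were 486 higher and 199 lower of 14049 with overexpression, and 7 higher and 8 lower of 13607 with anti-miR-147b. Genes with a miR-21 match had a median of 0.333 over 1431 genes with anti-miR-21, against -0.043 over all 13607, and of 0.015 over 1486 genes with miR-21 overexpression, against -0.002 over all 14049. This list was also above all genes where miR-21 was not altered. Its median was 0.091 against 0.027 with miR-147b overexpression and 0.070 against 0.017 with anti-miR-147b. In the difference between tolerant lines it was 0.32 against -0.03. The part of miR-21 in these medians was not tested.

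The nuclear subunits of complex IV were described together with NDUFA4, and 14 of 18 listed passed the filter on low counts. Of these, NDUFA4 included, all 14 were below 0 in the difference between lines. Their median was -1.04, against -0.06 over all 19837 genes tested. COX7B2, among them, had a log2 ratio of 0 in both tolerant HCC827 libraries, so its sign came from PC9 alone. Of the 14, 2 passed, against 3.90% of all genes, and 9 had an unadjusted p under 0.05, against 26.8% of all genes. COX8A, a subunit of the membrane part of the complex, had 52.4 CPM in gefitinib-tolerant and 52.5 CPM in osimertinib-tolerant PC9, against 58.4 CPM in parental PC9. In HCC827 it had 30.4 and 27.8 CPM in the tolerant cells, against 104 CPM in parental cells, and the difference between lines was -1.73 ± 0.21 (log2, SE, adjusted p = 0.0333, edgeR). The median log2 ratio to the parental library over the 14 subunits was 0.61 and 0.51 in gefitinib-tolerant and osimertinib-tolerant PC9 and -0.24 and -0.40 in HCC827. Against the scrambled library of the line, set in its place after the data were seen, the median was -0.58 and -0.87 in tolerant PC9 and -0.58 and -0.66 in tolerant HCC827, so the direction in PC9 turned with the untreated library. Scrambled PC9 itself had a median of 1.33 relative to parental PC9, with 13 of the 14 above 0, and scrambled HCC827 0.24. With both untreated libraries of a line as controls, 13 of the 14 were below 0 in the difference between lines, at a median of -0.29 against -0.08 over all genes, and 0 passed. The 19 tested assembly factors of the complex had a median of -0.22 in the same difference, with 0 passing and 4 at an unadjusted p under 0.05 against 26.8% of all genes, and COX14 came nearest (-1.48 ± 0.27, adjusted p = 0.0546).

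With miR-147b overexpression 13 of the 14 subunits were below 0, at a median of -0.20 against 0.02 over all 18433 genes, and 0 passed, with 1 (NDUFA4) at an unadjusted p under 0.05. The median was -0.22 in AALE, 0.00 in HCC827 and -0.24 in PC9, and 13 of the 14 were below the scrambled library in AALE, 7 in HCC827 and 11 in PC9. NDUFA4 had the lowest value of the list in AALE (-0.92), while COX6B2 had the lowest in HCC827 (-0.54, NDUFA4 at -0.29) and COX5B in PC9 (-0.72, NDUFA4 at -0.13). The last 2 subunits were named after their values were seen. With miR-21 COX6B2 had -0.52 in HCC827 and COX5B had -0.41 in PC9, where NDUFA4 had -0.01 and 0.08. In miR-147b against miR-21 overexpression all 14 were below 0 (median -0.16 against 0.02 over all genes), with 0 passing and 1 at an unadjusted p under 0.05. COX7B2 had a log2 ratio of 0 in AALE and HCC827 with either miRNA, so its sign in these fits came from PC9 alone. With anti-miR-147b the median was -0.10, with 10 of 14 below 0 and 0 passing or at an unadjusted p under 0.05. In the PC9ER anti-miR-21 library all 14 were below the control, at a median of -0.68.

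Complex II, the complex of SDHD, had 8 genes tested, subunits and assembly factors together. All 8 were below 0 in the difference between lines (median -0.50), with 0 passing and 3 at an unadjusted p under 0.05 against 26.8% of all genes, and SDHAF1, an assembly factor, came nearest (-2.001 ± 0.364, adjusted p = 0.0538, edgeR). With miR-147b overexpression 6 of 8 were below 0 (median -0.12), 0 passed and 1 had an unadjusted p under 0.05. That was SDHC, the other membrane anchor, with 70.2 CPM in AALE against 101 CPM with the scrambled control, 108 CPM in HCC827 against 103 CPM, and 89.3 CPM in PC9 against 128 CPM, a change of -0.31 ± 0.13 (adjusted p = 0.921). The catalytic subunits SDHA and SDHB had -0.08 ± 0.09 and -0.02 ± 0.10 there. With anti-miR-147b the median was -0.07 and 0 passed or had an unadjusted p under 0.05. Of 13 tested enzymes of the tricarboxylic acid cycle 0 passed in any comparison with the parental libraries as controls, at a median of -0.004 with miR-147b overexpression (0 at an unadjusted p under 0.05) and -0.48 over both drugs (12 of 13 below 0, 5 at an unadjusted p under 0.05 against 23.5% of all genes), against 0.02 and 0.04 over all genes. With both untreated libraries as controls 3 of the 13 passed over both drugs, all lower (median -0.61), where 12.2% of all genes passed.

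Of 5 tested components of the VHL ligase 0 passed in any comparison, and their median was -0.01 with miR-147b overexpression and 0.05 with anti-miR-147b, with 0 at an unadjusted p under 0.05 in either. HIF1A, a substrate of that ligase as a protein, had a log2 fold change of 0.32 ± 0.16 in mRNA with miR-147b overexpression (adjusted p = 0.921) and -0.03 ± 0.68 with anti-miR-147b (adjusted p = 1.00). Of 24 HIF target genes, 20 were above 0 with overexpression (median 0.13 against 0.02 over all genes) and 16 with anti-miR-147b (median 0.09 against 0.02). By line the median with miR-147b was 0.18 in AALE, 0.16 in HCC827 and -0.04 in PC9, where 14 of the 24 were below 0. With miR-21 overexpression 18 of the 24 were above 0 (median 0.06), at 0.12 in AALE, 0.26 in HCC827 and -0.10 in PC9. None of the 24 passed in either, with 2 at an unadjusted p under 0.05 with overexpression (ADM and VEGFA) and 0 with anti-miR-147b. VEGFA, an angiogenic growth factor, had 0.32 ± 0.14 and ADM, a vasodilator peptide, 0.35 ± 0.14 with overexpression. In the difference between lines 1.98% of all genes passed as lower. There 21 of 24 HIF targets were below 0 (median -1.72) and 9 passed, all lower. They included BNIP3, a mitophagy receptor (-2.77 ± 0.20), the stress-response gene NDRG1 (-4.03 ± 0.37), the glycolytic regulator PFKFB3 (-2.59 ± 0.25) and the HIF prolyl hydroxylase EGLN3 (-4.41 ± 0.46), each with an adjusted p of 0.0333. With both untreated libraries as controls 20 of the 24 HIF targets were below 0 (median -1.57) and 3 passed, where 1.25% of all genes passed. Of 9 tested HIF subunits and oxygen sensors 6 were below 0 in the difference between lines (median -0.28) and 2 passed. These were EGLN3, also in this list, and the HIF subunit ARNT2, which was higher (4.43 ± 0.33, adjusted p = 0.0333, edgeR). With both untreated libraries as controls 2 of this list passed, 1 of them higher. Marker sums also differed in tolerance. The 5 epithelial markers summed to 8142 and 7354 CPM in gefitinib-tolerant and osimertinib-tolerant PC9 against 7483 CPM in parental PC9, and to 4475 and 4174 CPM in tolerant HCC827 against 6665 CPM in parental HCC827. The 4 basal markers summed to 102 and 181 CPM in tolerant PC9 against 968 CPM in parental PC9, and to 1.90 and 2.05 CPM in tolerant HCC827 against 21.3 CPM in parental HCC827. The 4 fibroblast markers summed to 26.6 and 72.2 CPM in tolerant PC9 against 22.1 CPM in parental PC9, and to 91.1 and 131 CPM in tolerant HCC827 against 14.9 CPM in parental HCC827. The 5 leukocyte markers summed to 53.5 and 35.1 CPM in tolerant PC9 against 43.1 CPM in parental PC9, and to 41.0 and 34.6 CPM in tolerant HCC827 against 118 CPM in parental HCC827. The 4 alveolar markers summed to at most 1.12 CPM in tolerant PC9 against 0.621 CPM in parental PC9, and to 116 and 189 CPM in tolerant HCC827 against 301 CPM in parental HCC827. The part of these markers in the results was not tested. In PC9 the median of the 24 HIF targets was 0.48 with gefitinib and 0.36 with osimertinib, and in HCC827 it was -1.60 and -1.87. CA9, a HIF target that is often used to mark hypoxia, was at most 0.545 CPM in every library.

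NF-kB and inflammatory genes, with which C15orf48 is known to be induced, were above 0 in 19 of 20 with miR-147b overexpression. The median was 0.42 against 0.02 over all genes, 0 passed, and 10 of the 20 had an unadjusted p under 0.05, against 4.49% of all genes. IL1A, a pro-inflammatory cytokine, had 137 CPM in AALE against 43.8 CPM with the scrambled control, 3.41 CPM in HCC827 against 0.799 CPM, and 1.37 CPM in PC9 against 1.21 CPM. Its change was 1.45 ± 0.27 (log2, SE, adjusted p = 0.780, edgeR), higher in 3 of 3 lines. IL8, a neutrophil chemokine, had 2.77 CPM in AALE against 1.76 CPM, 56.4 CPM in HCC827 against 15.3 CPM and 33.6 CPM in PC9 against 14.0 CPM, a change of 1.43 ± 0.27 (adjusted p = 0.840). The median of the list was 0.56 in AALE, 0.83 in HCC827 and -0.06, near 0, in PC9. PC9 also had the lowest MIR147B level with miR-147b overexpression (2.89 CPM) and C15orf48 at 0.874 of its control. No link among these values was tested. The 4 basal markers moved with this list. Their summed level was 9177 CPM with miR-147b in AALE against 4057 CPM with the scrambled control, 38.7 CPM in HCC827 against 5.00 CPM, and 510.1 CPM in PC9 against 577 CPM. All 4 were above 0 in the fit (median 1.27, 0 passing, 3 at an unadjusted p under 0.05), and their part in the result was not tested. With miR-21 overexpression 9 of 20 NF-kB and inflammatory genes were above 0 (median -0.01) and 0 had an unadjusted p under 0.05. With anti-miR-147b 15 of the 18 tested were above 0 (median 0.21), with 0 passing or at an unadjusted p under 0.05. With anti-miR-21 12 of the 18 were above 0 (median 0.32) and 0 passed. There 3 had an unadjusted p under 0.05, against 2.01% of all genes, and IL1A had 2.335 ± 0.599 (adjusted p = 0.833, edgeR). By line the median over the 20 listed with anti-miR-21 was 0.43 in H1975 and -0.21 in PC9ER. In the difference between tolerant lines 14 of 20 were above 0 (median 0.42) and 2 passed, against 3.90% of all genes. Both were higher in HCC827 relative to PC9, each with an adjusted p of 0.0333 (edgeR). They were the chemokine CXCL2 (3.48 ± 0.31) and the NF-kB inhibitor TNFAIP3 (2.92 ± 0.31). Their sign was opposite to that of C15orf48, which had -3.76.

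**Figure D4:**
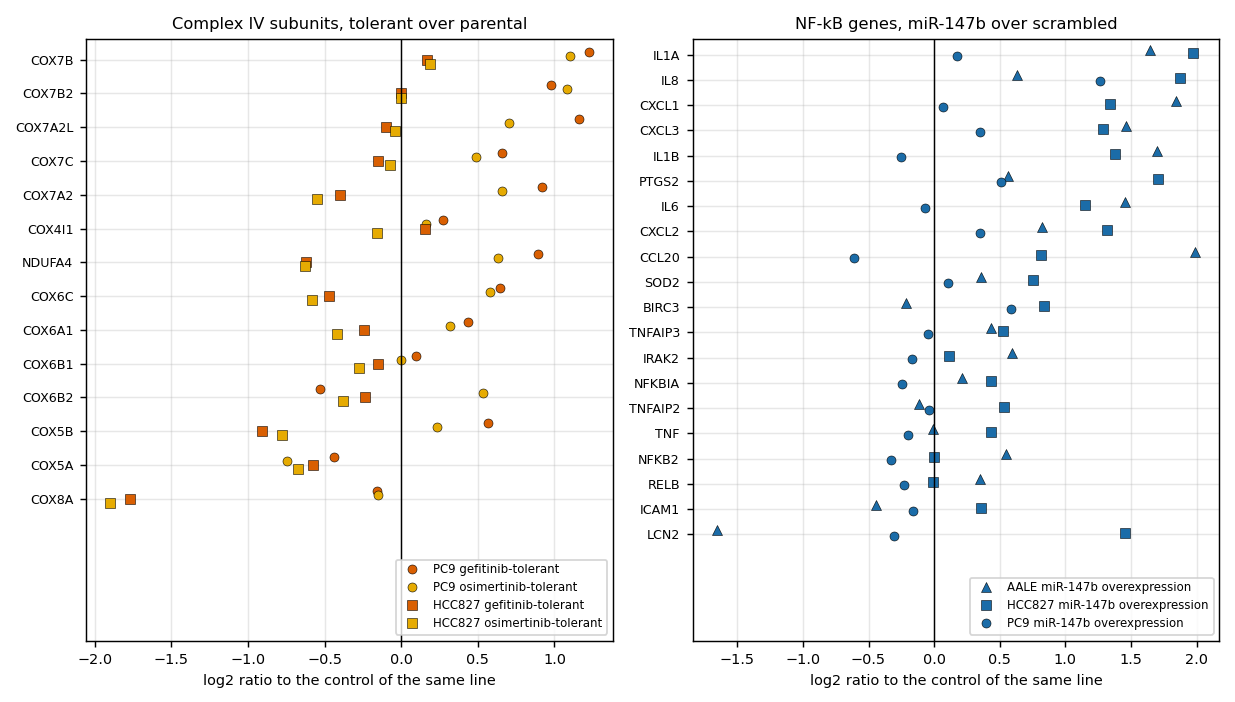
Log2 ratio to the control library of the same line (horizontal axes, prior count of 2) for 14 complex IV subunits in the 4 tolerant libraries of PC9 and HCC827 (left) and for 20 NF-kB and inflammatory genes in the 3 miR-147b overexpression libraries (right); each point is 1 library. The list medians are 0.61 and 0.51 in tolerant PC9 against -0.24 and -0.40 in tolerant HCC827 relative to the parental libraries, where PC9 turns to -0.58 and -0.87 relative to its scrambled library, and 0.56 in AALE, 0.83 in HCC827 and -0.06 in PC9 with miR-147b.

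Among genes next to C15orf48 on chromosome 15, 0 of 8 tested passed in the difference between lines and 4 had an unadjusted p under 0.05, against 26.8% of all genes. GATM, a creatine synthesis enzyme, came nearest, with 7.27 CPM in gefitinib-tolerant and 6.60 CPM in osimertinib-tolerant PC9 against 2.06 CPM in parental PC9, and 0.671 and 0.644 CPM in tolerant HCC827 against 1.39 CPM in parental HCC827. Its difference between lines was -2.87 ± 0.50 (adjusted p = 0.0519, edgeR), of the same sign as that of C15orf48. With miR-147b overexpression GATM had 1.55 CPM in AALE against 0.943 CPM, 0.568 CPM in HCC827 against 0.200 CPM and 4.31 CPM in PC9 against 2.99 CPM with the scrambled control, a change of 0.82 ± 0.33 (adjusted p = 0.921).

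The genes most like each member were taken by Pearson's r over the 14 log2 differences to the line's own control, among 12951 genes with a mean of at least 1 log2 CPM. The differences of a line within an experiment share their control library, so r is a description and has no p. NDUFA4 was most like COX7C, another complex IV subunit (r = 0.938), DVL2 (0.933), NDUFB6, a subunit of complex I (0.933), MVP (0.923) and REPIN1 (0.921). C15orf48 had lower values, with RAPGEF3 (0.828), IFITM1, an interferon-induced membrane protein (0.827), DAB2IP (0.783), C14orf79 (0.758) and HOXA-AS2 (0.751). Its differences were 7.0 and 6.2 in the AALE and HCC827 miR-147b libraries and between -1.6 and 3.3 in all others. In those miR-147b libraries delivered hairpin reads and C15orf48 reads cannot be told apart, and their weight in r was not tested. VHL was most like ST3GAL5 (0.883) and CXCL5 (0.855), and SDHD was most like CDC42SE2 (0.955) and HMGXB4 (0.932).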

How the data were processed

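In 3 tables the authors deposited an expected count for each gene and library, made with Bowtie2 and RSEM on GRCh37 per the submitters' processing notes, with versions and annotation not given in the sources used here. Their deposited read summary gives the number of reads per library (17932024 to 33129732) and the percent of bases above its quality score limit. Since 64.3% of the nonzero values carried a fraction, counts were rounded before testing. The 5 control columns in both miRNA tables were identical and entered once. The table holds 0 unmapped columns and 0 entries that name no gene.

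Libraries were TMM-scaled, low counts were removed with filterByExpr, and genes were tested two-sided with edgeR 4.0.16's quasi-likelihood test (R 4.3.3) and Benjamini-Hochberg adjustment at 0.05 over all genes, the cell line as block. Each experiment had its own fit (6 libraries for tolerance, 9 for overexpression, 6 for knockdown), and overexpression minus knockdown used all 15 miRNA libraries. Same-line libraries correlated at 0.706 to 0.930 after centring each group, and the labels give the line. Tolerance by line used line, tolerance and their interaction. DESeq2 1.42.0, limma 3.58.1, other scalings, no filter, no block and each library left out were alternatives. Log2 ratios used a prior count of 2. Intervals of counts and the floor of 3 counts cover counting error only. The scripts were tested on simulated data.

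Seed matches used GENCODE release 29 on GRCh38, since the authors' build was not used here, and reads were never placed on it. Genes were named by a rule: the members always, from each list up to 4 that passed or the 2 of smallest p, NDUFA4L2, SDHA, SDHB, SDHC, HIF1A, CA9 and VEGFA, and the 5 most like each member. The members, lists and rule were chosen with earlier results of these data known.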

Additional observations from a re-analysis of the deposited data

Results flagged for a closer look

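The tolerant-over-parental change differed between the lines, by the test of the difference itself, for 2 members. For C15orf48 the change in HCC827 minus that in PC9 was -3.758 on the log2 scale (adjusted p = 0.0333, edgeR's quasi-likelihood test), with both drugs lower in HCC827 and higher in PC9. For NDUFA4 it was -1.447 (adjusted p = 0.0484, edgeR's quasi-likelihood test), with the same directions. The parental PC9 library, in both differences, had less C15orf48 and NDUFA4 than the other 5 PC9 libraries, 18.8 CPM against at least 135 CPM and 47.4 CPM against at least 73.6 CPM, and scrambled PC9 had 9.38 times its C15orf48 and 3.11 times its NDUFA4. Each parental arm was 1 library, so both p-values rest only on the spread between the 2 drugs. With both untreated libraries of each line as controls, the difference was -0.73 ± 1.28 for C15orf48 (adjusted p = 0.865, edgeR) and -0.32 ± 0.62 for NDUFA4 (adjusted p = 0.882, edgeR), and neither passed.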

How the results depend on the processing

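Every value for a gene below is a log2 fold change. With no filter on low counts the genes passing numbered 47 (gefitinib), 137 (osimertinib), 519 (both drugs), 3 (tolerance by line), 266 (miR-147b overexpression), 77 (miR-21 overexpression), 281 (miR-147b against miR-21 overexpression), 29 (anti-miR-147b), 39 (anti-miR-21) and 4 (overexpression minus knockdown). DESeq2 gave 1345, 1754, 2477, 2351, 7, 1, 12, 26, 37 and 11 in that order, and 1 for anti-miR-147b against anti-miR-21. Limma's voom gave 4 for miR-147b over scrambled and 3 over miR-21. The fit with no replicate block, so without the pairing by line, gave 0 for each. With both untreated libraries as controls the counts were 39, 653, 2427 and 249 (by line). Size factors of DESeq2's kind inside edgeR changed no call.

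C15orf48 by line did not pass with no filter (-3.73) or with both untreated controls (-0.73), nor did NDUFA4 (-1.42 and -0.32), which also missed with limma (-1.44). MIR147B did not pass with DESeq2 (10.35 over scrambled, 10.25 over miR-21) or without the block (11.13 for each), but with 0 counts in the other groups these values follow from the prior count and are neither a bound nor a test of the gene. C15orf48 passed with no filter (5.03 over scrambled, 5.13 over miR-21) and, over miR-21, with DESeq2 (5.50). Signs turned for NDUFA4 over both drugs (0.021, limma), for gefitinib (-0.079 without the block, -0.35 with both controls) and with miR-21 (-0.0088, no filter). They also turned for VHL with miR-147b (-0.0019 with other size factors, -0.0024 with DESeq2) and by line (-0.015 with both controls), and for C15orf48 with miR-21 (0.048, DESeq2) and anti-miR-147b (0.0041, limma). The causes were not tested.

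Leaving out each library in turn gave these ranges, where a lone library is assumed to vary like the others. Genes passing ranged from 0 to 3528 (gefitinib), 0 to 3933 (osimertinib), 10 to 4558 (both drugs), 0 to 0 (by line), 0 to 14 (miR-147b over scrambled, and over miR-21), 13 to 134 (anti-miR-147b), 1 to 5595 (anti-miR-21), 0 to 4554 (anti-miR-147b against anti-miR-21) and 0 to 1 (overexpression minus knockdown). The highest tolerance counts came without parental PC9 and the highest anti-miR-21 counts without the H1975 anti-miR-21 library. MIR147B ranged from 10.43 to 11.63 over scrambled and 10.52 to 11.69 over miR-21. C15orf48 ranged from -0.62 to 3.15 (gefitinib), -0.35 to 3.42 (osimertinib), -0.48 to 3.29 (both drugs), -4.04 to -3.50 (by line), 3.15 to 6.48 (miR-147b), 3.36 to 6.44 (over miR-21), -1.02 to 1.96 (miR-21), -0.58 to 0.68 (anti-miR-147b), -1.51 to 0.21 (anti-miR-21) and -0.20 to 1.51 (between them). NDUFA4 ranged from -0.61 to 0.82 (gefitinib), -0.75 to 0.68 (osimertinib), -0.68 to 0.75 (both drugs), -1.57 to -1.31 (by line), -0.089 to 0.16 (miR-21), -0.37 to 0.034 (anti-miR-147b), -0.65 to -0.050 (anti-miR-21) and -0.12 to 0.47 (between them). VHL ranged from -0.51 to 0.017 (osimertinib), -0.13 to 0.13 (both drugs), -0.30 to 0.50 (by line), -0.061 to 0.093 (miR-147b), -0.00050 to 0.10 (over miR-21), -0.11 to 0.049 (miR-21), -0.15 to 0.27 (anti-miR-147b), -0.68 to 0.043 (anti-miR-21), 0.0097 to 0.73 (between them) and -0.23 to 0.14 (overexpression minus knockdown). SDHD ranged from -0.28 to 0.085 (gefitinib), -0.10 to 0.11 (over miR-21), -0.0022 to 0.23 (miR-21), -0.15 to 0.24 (anti-miR-147b), -0.028 to 0.48 (anti-miR-21), -0.44 to 0.067 (between them) and -0.10 to 0.34 (overexpression minus knockdown). Without the H1975 anti-miR-21 library, that of PC9ER was the only one of its group. The changes with anti-miR-21 in that fit were -1.51 for C15orf48, -0.65 for NDUFA4 and -0.68 for VHL.

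With 1 library per condition and line, the spread between lines limits every test, and a change smaller than the intervals given was not detectable.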
